A study of Mus musculus with 6 samples.

Results

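Cytosolic ribosomal protein genes encode the proteins of the ribosome outside mitochondria. They were followed here in corticothalamic projection neurons of C57BL/6 mice at E18, P3 and P6. A gene was taken as a member when at least 1 probe set carried its symbol alone and the symbol followed the Rpl or Rps nomenclature, with Rplp0, Rplp1, Rplp2 and Rpsa added and pseudogenes and S6 kinases left out. The rule used names and signal level and no difference between stages. It found 49 of the 18193 genes with a probe set of their own, 26 of the large (Rpl) and 23 of the small (Rps) subunit. For a gene with several probe sets, the one with the highest mean over the 6 arrays stood for the gene. A further 28 ribosomal protein symbols, among them Rpl3, Rpl5, Rpl10, Rplp1 and Rps12, occurred only on probe sets that carried several symbols and were not analysed here. Of the 49 members, 46 passed the filter on dim genes and were tested, 24 of the large and 22 of the small subunit. Rpl39l, Rpl3l and Rps16 did not pass, and they were the 3 members whose signals lay below the 50th percentile of probe sets on average.

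The neurons send axons from the cortex to the thalamus. All animals were wild type. Green fluorescent microspheres were injected into the thalamus, from where the axons carry them back to the cell bodies, and labelled cells were sorted by their fluorescence after the cortex had been dissociated. The stage called E18 was injected at E17.5 and collected at E18.5, P3 was injected at P1, and P6 was injected at P4. The labelling time was therefore 1 day at E18 and 2 days at P3 and P6, and stage and labelling time cannot be told apart. Each stage had 2 arrays, and the labels do not say whether these came from separate animals or sorts, so the p-values measure the spread between these arrays, which may be technical.

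A ribosome is assembled from a small subunit, which reads the messenger RNA, and a large subunit, which joins the amino acids. Each ribosome needs a single copy of nearly every ribosomal protein, and the messenger RNAs of these proteins are among the most abundant of a growing cell. Their messages share a run of pyrimidines at the very start, through which the mTOR pathway controls their translation. Newly born neurons leave the cell cycle and then grow axons and dendrites, both of which depend on ribosomes. An array measures the level of the message and says nothing of its translation.

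The values were log2 expression values per probe set, so a difference of 1 is a 2-fold change, and they are relative signals with no read depth. The members were bright: 35 of 49 lay above the 95th percentile of probe sets on average and 26 above the 99th. Replicates were closest at E18, where 0 probe sets differed over 2-fold between the arrays, against 3664 at P3 and 1710 at P6. The mean of the proliferation genes was 10.93 and 10.97 on the E18 arrays and 6.55 to 6.67 on the later 4, and that of the progenitor genes was 10.59 on both E18 arrays and 6.50 to 6.76 later. Of the proliferation genes, 21 of 22 tested were called lower at P3 and 21 at P6. Of the corticothalamic genes, 10 of 12 tested were called higher and 1 lower at each later stage, and the mean of that list rose from 8.47 and 8.55 to between 9.70 and 10.47. Of the pan-neuronal genes 9 of 14 were called higher and 1 lower at P3. Among markers of other cells, those called lower at P3 were 12 of 14 progenitor, 9 of 14 astrocyte, 3 of 8 oligodendrocyte, 7 of 10 microglia, 4 of 8 vascular, 4 of 9 interneuron and 0 of 2 red blood cell genes, with 2 astrocyte, 1 oligodendrocyte and 1 interneuron gene called higher. The values have no true zero, so no marker could be called absent. At P6 those called lower were 12 of 14 progenitor, 8 of 14 astrocyte, 1 of 8 oligodendrocyte and 0 of 10 microglia genes. They were also 6 of 8 vascular, 3 of 9 interneuron and 0 of 2 red blood cell genes. At that stage 1 astrocyte and 1 interneuron gene were called higher. The mean of the microglia genes was 8.42 and 8.41 on the E18 arrays and 6.81 and 8.13 on the P6 arrays. Differences between E18 and a later stage described below came with changes in many of these lists. The part of the lists in those differences was not tested. In a bulk sample, fewer cells of a type and less message per cell cannot be told apart.

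Most ribosomal protein messages were lower at P3 than at E18. Of the 46 genes tested, 30 were called lower at an adjusted p below 0.05 and 1, Rpl27a, was called higher. The background in this comparison was large: 41.3% of all 13645 genes tested were called, 25.7% lower and 15.5% higher. The median change of the 46 genes was -0.75 on the log2 scale, a level 1.68-fold lower, beside -0.13 over all genes tested. The change was negative for 43 of the 46 genes. For 40 of them both P3 arrays lay below both E18 arrays, which held for 44.2% of all genes. The P3 arrays differed in depth of the fall. Relative to each gene's E18 mean, the median of the 46 genes was -0.55 on P3 replicate 1 and -0.95 on P3 replicate 2. The 99th percentile of all probe sets was 12.25 and 12.26 on the E18 arrays, 12.15 on P3 replicate 1 and 11.78 on P3 replicate 2. The brightest probe sets as a whole thus read lower on P3 replicate 2, and the part of this in the members' fall was not tested. For the fits that follow, the share of all genes is not given, so their counts cannot be read as particular to the members. Without P3 replicate 2 the number called lower was 21, and it was 9 without E18 replicate 1 and 8 without E18 replicate 2. With both E18 arrays averaged and counted as 1 sample it was 9: Rpl6, Rpl8, Rpl12, Rpl14, Rplp0, Rps6, Rps9, Rps10 and Rps27l.

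**Figure D1:**
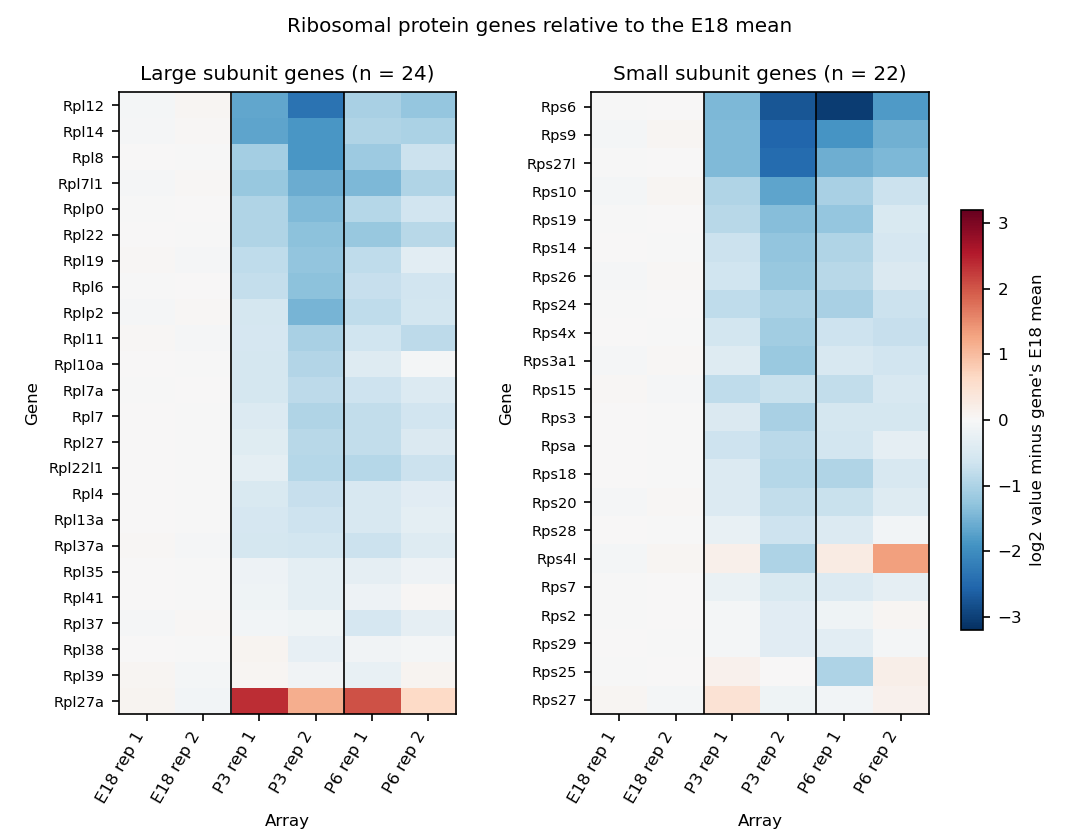
Log2 value of each of the 46 tested ribosomal protein genes on each array minus the gene's E18 mean, for the large subunit (left, 24 genes) and the small subunit (right, 22 genes), genes ordered by their change from E18 to P3. Blue is below and red above the E18 mean. Nearly all rows are blue on the 4 later arrays and deepest on P3 replicate 2, while Rpl27a is red on all 4.

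Rps6, Rpl12, Rps9, Rps27l and Rpl14 had the lowest changes between E18 and P3. Their probe sets averaged 8.08, 8.45, 11.65, 9.72 and 7.91 over the 6 arrays. Apart from that of Rps9, these were dimmer than the probe sets of most members. Whether the size of a change depended on brightness was not tested. Rps6 is the small subunit protein that S6 kinase phosphorylates when mTOR is active. Its probe set read 9.56 and 9.60 on the E18 arrays, 8.16 and 6.84 on the P3 arrays, and 6.55 and 7.77 on the P6 arrays. All 4 later arrays lay below both E18 arrays, with replicates far apart at either later stage. The change of Rps6 was -2.09 ± 0.51 (SE) at P3 (adjusted p = 0.017) and -2.42 ± 0.51 at P6 (adjusted p = 0.010). Without P3 replicate 2 the P3 change was -1.43 and was not called (adjusted p = 0.092).

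Rpl12 sits at the base of the stalk to which translation factors bind. It read 9.44 and 9.56 on the E18 arrays, 7.84 and 7.14 on the P3 arrays, and 8.47 and 8.27 on the P6 arrays. The stages did not overlap, with P3 lowest and P6 between the others. Relative to E18, Rpl12 changed by -2.01 ± 0.29 at P3 (adjusted p = 0.0018) and by -1.13 ± 0.29 at P6 (adjusted p = 0.021). Rpl14, another large subunit protein, followed the same order. Its values were 8.80 and 8.88 on the E18 arrays, 7.14 and 6.97 on the P3 arrays, and 7.88 and 7.82 on the P6 arrays. Rpl14 fell by 1.78 ± 0.20 at P3 (adjusted p = 0.00069), the smallest adjusted p of any member in that comparison.

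Rps9 helps to form the channel through which the message enters. It read 12.80 and 12.94 on the E18 arrays, 11.46 and 10.34 on the P3 arrays, and 10.98 and 11.34 on the P6 arrays. The values of P3 spanned those of P6, and both stages lay wholly below E18. Rps9 changed by -1.97 ± 0.36 at P3 (adjusted p = 0.0055), a 3.92-fold lower level, and by -1.71 ± 0.36 at P6 (adjusted p = 0.010). The size of this fall depended on the probe set. Another Rps9 probe set of similar mean signal (11.51 beside 11.65) changed by -0.30 at P3 and -0.18 at P6. Tested on its own, it was called at neither stage (adjusted p = 0.53 and 0.73). A dim one, with a mean of 6.27, changed by -1.82 and -2.01. Rps27l, a close relative of Rps27 that p53 induces, read 10.86 and 10.88 on the E18 arrays, 9.45 and 8.41 on the P3 arrays, and 9.31 and 9.43 on the P6 arrays. Rps27l changed by -1.94 ± 0.35 at P3 (adjusted p = 0.0053) and by -1.50 ± 0.35 at P6 (adjusted p = 0.016).

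**Figure D2:**
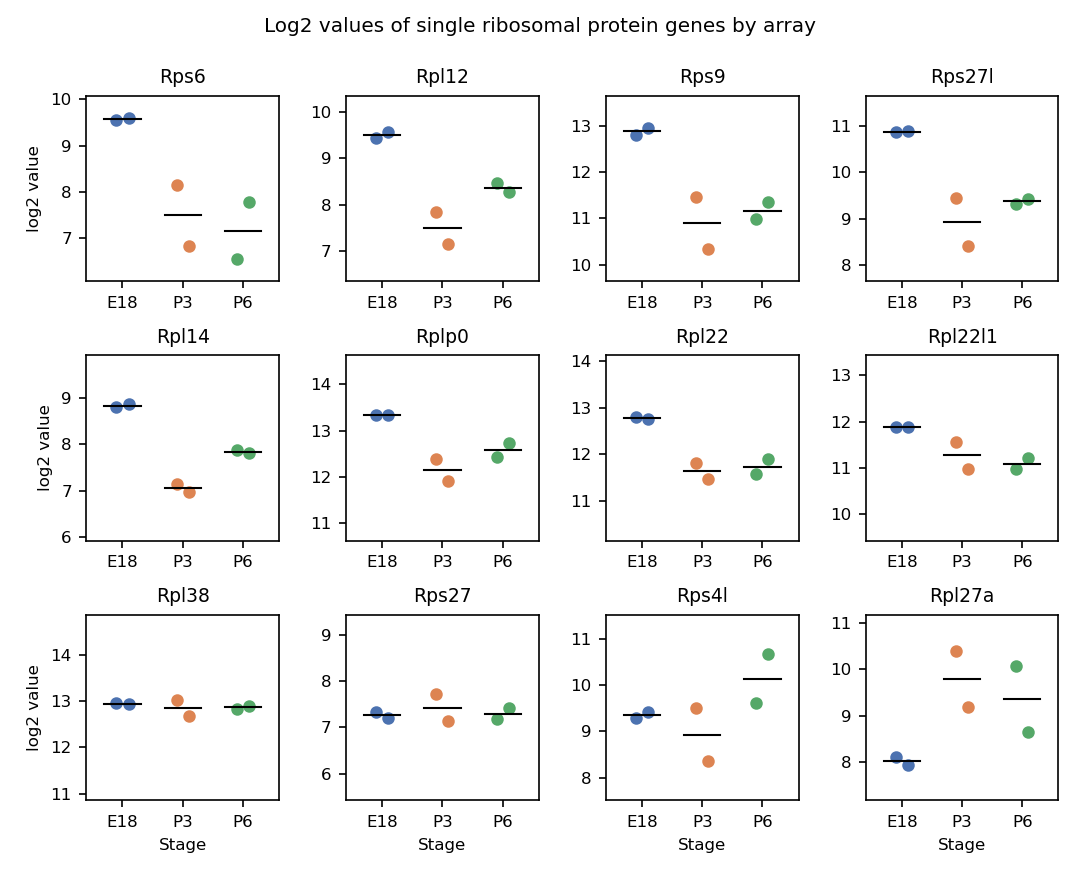
Log2 values of 12 ribosomal protein genes, with 1 panel per gene, stage on the x axis, 1 point per array and a line at the mean of the 2 arrays; every y axis spans 4 log2 units. Rps6, Rpl12, Rps9, Rps27l and Rpl14 drop below their E18 points at both later stages, Rpl38 and Rps27 stay near theirs, and the points of Rpl27a at P3 and P6 lie above theirs.

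The letters around the annotated start sites are shown for these 5 genes and for the 5 with the highest changes, because a pyrimidine run at the start of the message would lie there. Each line gives 30 bases, 15 before and 15 from the start on, from RefSeq on GRCm38.p6, 5′ to 3′ on the gene's strand. Capitals mark the longest run of C or T, where it has at least 7 bases.
Rps6, chr4:86857353-86857382, minus strand: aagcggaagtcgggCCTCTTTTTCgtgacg
Rpl12, chr2:32961697-32961726, plus strand: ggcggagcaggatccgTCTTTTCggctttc
Rps9, chr7:3704026-3704055, plus strand: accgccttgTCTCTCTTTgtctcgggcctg
Rps27l, chr9:66946071-66946100, plus strand: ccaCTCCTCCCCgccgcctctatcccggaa
Rpl14, chr9:120571502-120571531, plus strand: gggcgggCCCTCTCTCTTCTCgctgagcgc
Rpl38, chr11:114668565-114668594, plus strand: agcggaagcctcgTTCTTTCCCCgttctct
Rpl39, chrX:37085208-37085237, minus strand: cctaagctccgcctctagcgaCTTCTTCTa
Rps25, chr9:44407699-44407728, plus strand: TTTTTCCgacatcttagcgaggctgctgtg
Rps27, chr3:90213634-90213663, minus strand: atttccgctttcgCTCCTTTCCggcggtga
Rpl27a, chr7:109519180-109519209, plus strand: gacttcgtgagCTCCTCCCTTTTCCCTTTC
A stretch of at least 7 C or T was present in all 10 windows. In Rps25 and Rps27l it ended before the annotated start and so lay outside the annotated message. It ranged from 7 bases in Rpl12 and Rps25 to 19 in Rpl27a, the gene that rose. The start sites are annotated ones and were not measured here.

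Several genes had changes near 0. Rpl38, whose loss in mice disturbs the translation of Hox messages, read 12.95 and 12.94 on the E18 arrays, 13.03 and 12.68 on the P3 arrays, and 12.84 and 12.89 on the P6 arrays. Its change at P3 was -0.09 ± 0.17 (adjusted p = 0.70). Rpl39, a protein of the exit tunnel, had a change of -0.03 ± 0.23, Rps25 of 0.07 ± 0.37 and Rps27 of 0.16 ± 0.25. The P3 arrays of these 4 genes overlapped the E18 arrays. The probe sets of Rpl39, Rps25 and Rps27 averaged only 8.29, 8.13 and 7.33 over the 6 arrays, and that of Rpl38 averaged 12.89. In all, 14 of the 46 genes were called in neither comparison with E18: Rpl22l1, Rpl27, Rpl35, Rpl37, Rpl38, Rpl39, Rpl41, Rps2, Rps4l, Rps7, Rps25, Rps27, Rps28 and Rps29. The share of all genes called in neither is not given. For Rpl35 this held for the brightest probe set. Another, with a mean of 11.37, was called lower at P3 when tested on its own (-1.02, adjusted p = 0.042).

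Rpl27a, a large subunit protein, was the 1 member called higher. Its probe set read 8.11 and 7.94 on the E18 arrays, 10.40 and 9.19 on the P3 arrays, and 10.07 and 8.65 on the P6 arrays. All 4 later arrays lay above both E18 arrays, and replicates at the later stages were over 1 log2 unit apart. The level was 1.77 ± 0.54 higher at P3 (adjusted p = 0.035) and 1.33 ± 0.54 higher at P6, where it was not called (adjusted p = 0.10). The P3 call was lost without P3 replicate 1, where the change was 1.17, without either E18 array, and with the E18 arrays averaged. In the limma fit it was also lost with the 18S control signal as a covariate (1.67, adjusted p = 0.15). With the hybridization control signal as a covariate the change was 0.74 (adjusted p = 0.41). The other probe set of Rpl27a was below the filter and read 5.56 and 5.38 at E18 and 5.65 to 6.05 later.

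Proteins of the same place in the ribosome were compared. The stalk that recruits elongation factors is built from Rplp0 and pairs of Rplp1 and Rplp2. Rplp0 read 13.33 and 13.34 on the E18 arrays, 12.38 and 11.91 on the P3 arrays, and 12.43 and 12.74 on the P6 arrays, and it was called lower at both stages (-1.19 ± 0.21, adjusted p = 0.0048, and -0.75 ± 0.21, adjusted p = 0.032). Rplp2 went from 13.27 and 13.34 to 12.74 and 11.81 and then to 12.50 and 12.73. The change of Rplp2 was -1.03 ± 0.29 at P3 (adjusted p = 0.028) and -0.69 ± 0.29 at P6, where it was not called (adjusted p = 0.12). Rpsa, which binds the small subunit near the exit of the message and is also known as the laminin receptor precursor, was called lower at P3 (-0.75 ± 0.17, adjusted p = 0.012) and missed the threshold at P6 (-0.44 ± 0.17, adjusted p = 0.087).

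Around the peptide exit tunnel, 3 of the 5 tested genes were called lower at P3. Rpl4, which lines the tunnel, changed by -0.61 ± 0.16 (adjusted p = 0.022), Rpl19 by -1.04 ± 0.23 (adjusted p = 0.012) and Rpl22 by -1.14 ± 0.21 (adjusted p = 0.0058). The other members of that group were Rpl35 (-0.23 ± 0.16) and Rpl39. Along the channel of the message in the small subunit, 4 of 6 were called lower at P3: Rps3, Rps15, Rps26 and Rpsa, with changes between -0.75 and -0.92. Rps2 (-0.21 ± 0.17) and Rps28 (-0.46 ± 0.19) were not called. At P6, 1 gene of each group was called lower, Rpl22 and Rps15. Over all genes 25.7% were called lower at P3 and 16.9% at P6, and the P6 counts are near that share. Rpl11, which together with Rpl5 carries 5S ribosomal RNA and can bind Mdm2, the inhibitor of p53, read 12.53 and 12.46 on the E18 arrays, 11.96 and 11.47 on the P3 arrays, and 11.85 and 11.66 on the P6 arrays. Rpl11 was called lower at both stages (-0.78 ± 0.22, adjusted p = 0.029, and -0.73 ± 0.22, adjusted p = 0.042).

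Among genes whose partial loss causes Diamond-Blackfan anaemia, a failure to form red blood cells, 11 of a list of 19 were tested. Of these, 5 were called lower at P3, when 25.7% of all genes were: Rpl11, Rps10, Rps19, Rps24 and Rps26. Rps19, the gene of that disease found most often, read 11.79 and 11.83 on the E18 arrays, 10.93 and 10.44 on the P3 arrays, and 10.58 and 11.31 on the P6 arrays. It was lower on all 4 later arrays and changed by -1.13 ± 0.31 at P3 (adjusted p = 0.024). The median of the 11 was -0.65, against -0.75 for all 46 ribosomal protein genes.

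Several ribosomal proteins have a second gene elsewhere in the genome that encodes a close relative, and of 10 such relatives 4 were tested. Rpl7l1, a relative of Rpl7 with a role in early assembly of the large subunit, changed by -1.40 ± 0.27 at P3 (adjusted p = 0.0064) and by -1.21 ± 0.27 at P6 (adjusted p = 0.012). Its parent Rpl7 changed by -0.70 ± 0.21 and -0.70 ± 0.21 and was called lower at both. Rpl22l1 read 11.88 on both E18 arrays, 11.57 and 10.97 at P3, and 10.97 and 11.21 at P6. It was lower on all later arrays and was not called (-0.61 ± 0.26, adjusted p = 0.090 at P3, and -0.79 ± 0.26, adjusted p = 0.051 at P6), while its parent Rpl22 was called at both. Rps27l was called lower at both stages, and the change of its parent Rps27 was 0.16 at P3 and 0.03 at P6. Whether a relative and its parent differed in their changes was not tested.

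Rps4l, a relative of Rps4x, had the highest change of any member between P3 and P6. It read 9.28 and 9.41 on the E18 arrays, 9.50 and 8.36 on the P3 arrays, and 9.61 and 10.67 on the P6 arrays. Both P6 arrays lay above both E18 arrays, and the P3 arrays lay on either side of them. Its change was -0.42 ± 0.47 at P3 and 0.79 ± 0.47 at P6, and neither was called (adjusted p = 0.48 and 0.23). Rps4x itself was called lower at both stages (-0.85 ± 0.20, adjusted p = 0.014, and -0.69 ± 0.20, adjusted p = 0.034).

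At P6 most ribosomal protein messages were still below E18. Of the 46 genes, 18 were called lower and 0 higher in the limma fit, beside 31.7% of all genes called, 16.9% lower and 14.8% higher. At an unadjusted p below 0.05, 31 were lower and 1, Rpl27a, was higher, beside 5820 of all 13645 genes in either direction. The median change was -0.60, beside 0.08 over all genes. For 39 of the 46 both P6 arrays lay below both E18 arrays, as did 37.4% of all genes, and for 2, Rpl27a and Rps4l, both lay above. The lowest changes were those of Rps6, Rps9, Rps27l, Rpl7l1 and Rpl12. Of the 30 genes called lower at P3, 17 were also called lower at P6, and Rps18 was called at P6 alone, having missed the threshold at P3 (-0.68 ± 0.23, adjusted p = 0.050). That held for its brightest probe set only. The next brightest, with a mean of 12.74 beside 12.75, was called lower at both stages when tested on its own (-1.03, adjusted p = 0.017, and -1.04, adjusted p = 0.018). So was another bright one (-1.13 and -1.11), while a dim one changed by 0.30 and 0.21 and was not called. Both comparisons use the same E18 arrays, so the counts at P3 and P6 are not independent. The share of all genes called lower at both stages is not given, so the overlap cannot be read as particular to the members. For the fits without 1 array that follow, the share of all genes is not given. The P6 count depended on single arrays: it was 1 without P6 replicate 1, 11 without P6 replicate 2, 2 with either E18 array left out and 31 with either P3 array left out.

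**Figure D3:**
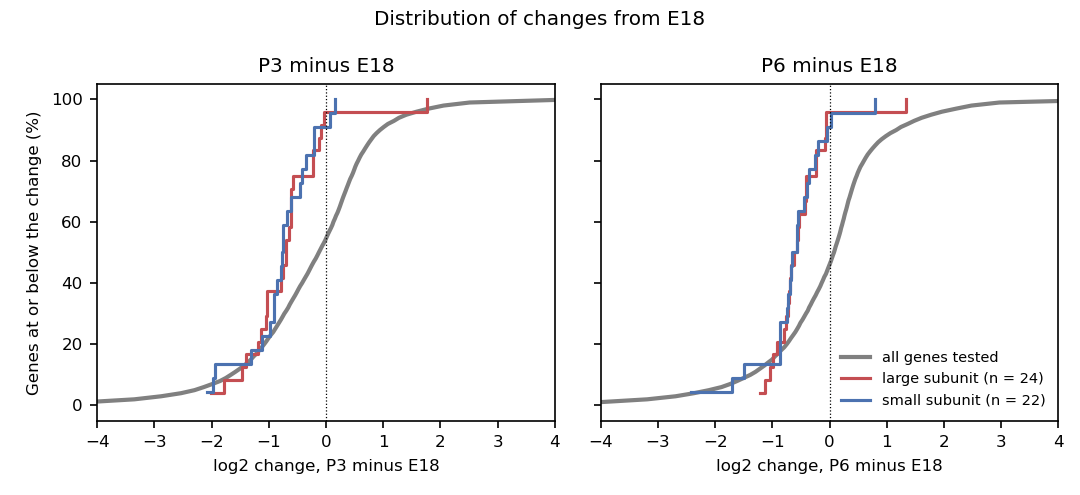
Cumulative distribution of log2 changes from E18 to P3 (left) and from E18 to P6 (right) for 24 large subunit genes (red), 22 small subunit genes (blue) and all 13645 genes tested (grey). The red and blue curves lie close together, with medians of -0.70 and -0.76 at P3 and -0.60 and -0.61 at P6, left of the grey curve through most of its middle and steeper than it.

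Between P3 and P6, 0 of the 46 ribosomal protein genes were called in the limma fit, as were 0.0% of all genes tested. At an unadjusted p below 0.05, 4 of the 46 were higher and 0 lower, beside 19.8% of all genes in either direction. The median change of the 46 was 0.16, and that of all genes was also 0.16, with 35 of them higher at P6. The highest changes were those of Rps4l (1.21), Rpl12 (0.88), Rpl14 (0.79), Rpl8 (0.55) and Rpl10a (0.51), and the lowest those of Rps25 (-0.47), Rpl27a (-0.44), Rps6 (-0.34), Rpl37 (-0.29) and Rpl22l1 (-0.18). Without P3 replicate 1 the changes of Rps4l, Rpl12, Rpl14, Rpl8 and Rpl10a were 1.78, 1.23, 0.88, 0.95 and 0.69.

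The change from P3 to P6 was also set against the change from E18 to P3 within the fit. Both intervals share the P3 arrays, so a low P3 value moves them in opposite directions. For 12 of the 46 genes the second interval's change was called higher than the first's and for 0 lower, beside 22.0% of all genes, 16.7% higher and 5.28% lower. At an unadjusted p below 0.05 it was higher for 24 and lower for 1, beside 5464 of all 13645 genes in either direction. The 12 were Rpl6, Rpl7l1, Rpl8, Rpl10a, Rpl12, Rpl14, Rpl19, Rplp0, Rps9, Rps10, Rps27l and Rpsa. Rpl8, which lies close to the site where peptide bonds form, read 12.86 and 12.84 on the E18 arrays, 11.77 and 10.98 on the P3 arrays, and 11.69 and 12.17 on the P6 arrays. Its fall at P3 was -1.47 ± 0.30 (adjusted p = 0.0081), and the difference between intervals was 2.02. Rpl10a read 12.98 and 12.95, then 12.40 and 12.03, then 12.56 and 12.90, and was the member called lower at P3 whose P6 change was smallest (-0.24 ± 0.20, adjusted p = 0.39). Over the 3 stages together 24 of the 46 genes were called by the moderated F test, beside 38.7% of all genes. The number of genes called for the difference between intervals changed strongly with the single array left out. The share of all genes is not given for those fits.

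Large and small subunit genes had close medians. At P3 the large subunit had 16 genes called lower and 1 higher of 24, with a median of -0.70, and the small subunit 14 called lower of 22, with a median of -0.76. At P6 either subunit had 9 called lower, with medians of -0.60 and -0.61. Between P3 and P6 the medians were 0.15 and 0.18. The mean of the large subunit minus that of the small subunit, relative to E18, was 0.04 and 0.17 on the P3 arrays and 0.25 and 0.00 on the P6 arrays. With the mean of all probe sets per gene in place of the brightest it was negative at both stages (-0.23 at P3 and -0.13 at P6), so its direction depended on the choice of probe set. The difference between the subunits was not tested.

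Probe sets of one gene did not always move alike. Tested each on its own, 95 probe sets of the members gave 52 called lower and 4 called higher at P3. The share called among all 23311 probe sets of that fit is not given. Of 21 members with more than 1 tested probe set, all probe sets had the same direction at P3 in 15. The exceptions were Rps3, Rps6, Rps18, Rps20, Rps24 and Rps29. For Rps6 the second, dimmer probe set read 5.58 and 5.61 at E18 and 6.20 to 6.85 later, a change of 0.78 at P3 (adjusted p = 0.036), opposite to the probe set that stood for the gene. For Rps3, a protein at the entry of the message that also repairs DNA, the brightest probe set read 13.39 and 13.38 on the E18 arrays, 12.92 and 12.34 on the P3 arrays, and 12.83 and 12.81 on the P6 arrays. Its change at P3 was -0.75, and a dim probe set of the same gene changed by 1.35. In 14 of the 21 members another probe set had a lower change than the brightest. For Rpl13a the brightest changed by -0.61 and another by -2.02, for Rpl37a by -0.57 and -1.70, for Rps15 by -0.76 and -1.56, and for Rpl35 by -0.23 and -1.02. The 15 members represented by a probe set that can bind related transcripts, marked _x_at, had a median of -0.57 at P3, and the 16 marked _a_at, which bind transcripts of 1 gene, had a median of -0.79.

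**Figure D4:**
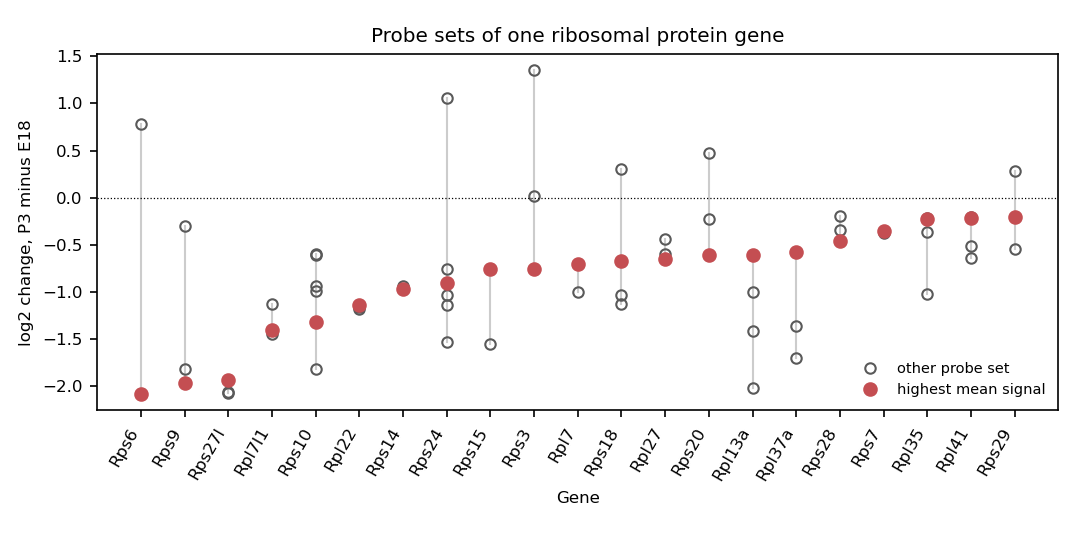
Log2 change from E18 to P3 of every tested probe set of the 21 ribosomal protein genes with more than 1, ordered by the change of the probe set with the highest mean signal (filled red); open circles are the other probe sets of the gene. Open circles above 0 mark Rps3, Rps6, Rps18, Rps20, Rps24 and Rps29, and open circles below the filled ones include those of Rpl13a, Rpl35, Rpl37a, Rps15 and Rps24.

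The depth of the fall also differed between arrays of one stage. Replicate 2 was below replicate 1 for 45 of the 46 genes at P3, with a median difference of -0.47, when 68.2% of all genes were lower there. At P6 replicate 2 was above replicate 1 for 39 of the 46, with a median of 0.28, when 47.3% of all genes were lower there. At E18 the genes split 25 lower and 21 higher around a median of -0.01, when 38.0% of all genes were lower on replicate 2. The 18S ribosomal RNA control probe sets averaged 11.32 and 11.36 on the E18 arrays, 11.83 and 14.22 on the P3 arrays, and 13.92 and 11.33 on the P6 arrays. At either later stage the array with the higher 18S signal had the lower ribosomal protein median, -0.95 against -0.55 at P3 and -0.72 against -0.48 at P6. The number of the 46 genes below their E18 mean was 40 and 44 on the P3 arrays and 44 and 39 on the P6 arrays. The share of all genes is not given for this count, and the part of the 18S signal in it was not tested. For the fits with a covariate that follow, the share of all genes is not given. With the 18S signal as a covariate 22 genes were called lower at P3. The bacterial spike-in controls of the hybridization averaged 9.40 and 9.06 on the E18 arrays, 11.57 and 11.44 on the P3 arrays, and 12.91 and 9.67 on the P6 arrays. With their level as a covariate 2 genes, Rpl12 and Rpl14, were called lower at P3 and 1, Rpl14, at P6. The signal of Actb at its 3′ end over that at its 5′ end was 0.56 and 0.58 log2 units at E18 and 0.82 to 1.76 later.

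**Figure D5:**
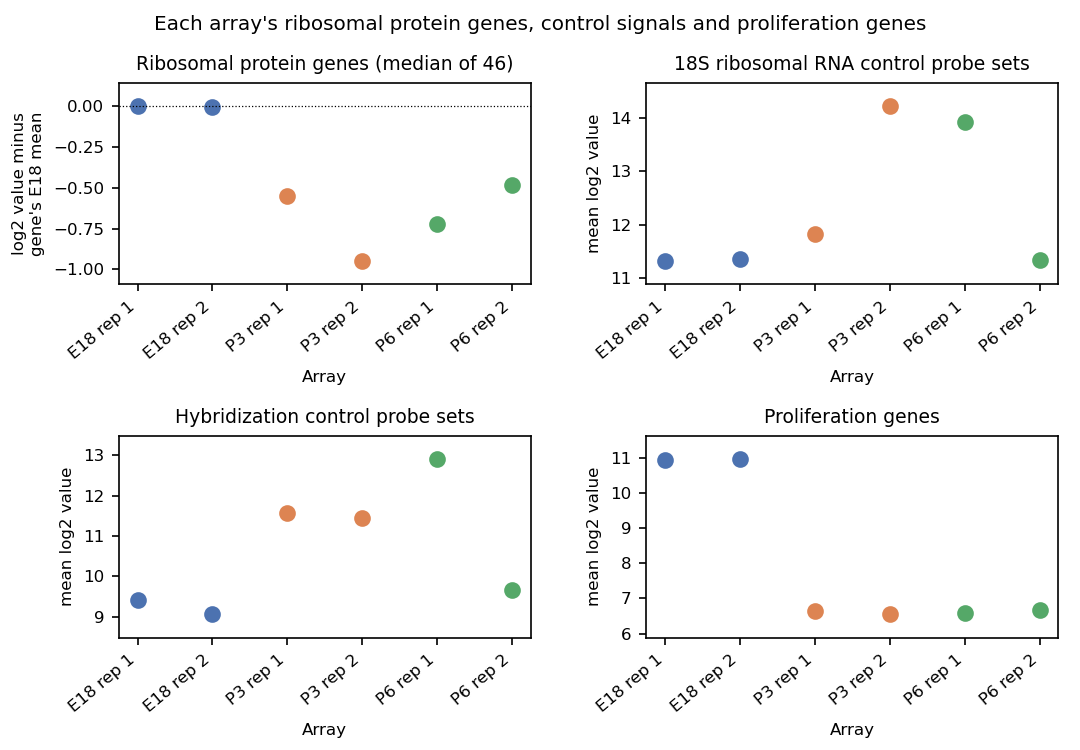
Values per array of the median ribosomal protein gene relative to E18, the 18S ribosomal RNA controls, the hybridization controls and the proliferation genes, all on the log2 scale, with points coloured by stage. The ribosomal protein median is lowest, -0.95, on P3 replicate 2, which has the highest 18S signal, 14.22, while the proliferation genes lie between 6.55 and 6.67 on all 4 later arrays.

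Promoters of the members were read for short letter motifs. RefSeq windows on GRCm38.p6, from 250 bases before to 50 after an annotated start, were found for 43 of the 49 members, in 51 windows. A run of at least 7 C or T within 15 bases of the start, on the strand of the gene, was in 47.1% of these windows and in 18.6% of all 32851 windows. The letters CCGGAAG, the core bound by ETS factors such as Gabpa, were found on either strand in 41.2% of the members' windows, in 15.3% of the windows of tested genes and in 8.86% of all. GGGCGG, which Sp1 binds, was in 52.9% of members' and 58.8% of tested genes' windows, CACGTG, which Myc binds, in 9.8% and 9.36%, TATAAA in 11.8% and 7.92%, and TGACGTCA in 3.92% and 2.85%. With 1 window per gene, the 21 tested members with the run had a median of -0.70 at P3 and the 19 without it -0.76, and the 20 with the ETS core had -0.71 and the 20 without it -0.76. The gaps were wider for the rarer motifs, which few members hold: -0.46 for 5 members with TATAAA and -0.76 for 35 without, -1.04 for 3 with CACGTG and -0.75 for 37 without, and -0.10 for 2 with TGACGTCA and -0.75 for 38 without. For GGGCGG the medians were -0.75 for 23 members with it and -0.76 for 17 without. A match is letters in a window and not a site in use.

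Other genes that make or serve the ribosome were taken from lists. Their counts in the fit of stage alone to all arrays are to be read against the shares of all genes in that fit. These shares were 25.7% called lower and 15.5% called higher at P3, and 16.9% and 14.8% at P6. The lists' counts with E18 averaged, with the hybridization covariate or without an array come from other fits. The share of all genes called is not given for those fits, so their counts cannot be set against the shares above. Fau, whose product is cleaved to give small subunit protein Rps30, was called lower at P3 (-0.91 ± 0.30, adjusted p = 0.043). Of 9 elongation factor genes 3 were called lower and 3 higher at P3, which became 1 and 1 with E18 averaged or with the hybridization covariate. Eef2, which moves the ribosome along the message, read 13.24 and 13.22 on the E18 arrays, 11.75 and 11.25 on the P3 arrays, and 12.47 and 12.65 on the P6 arrays, and changed by -1.73 ± 0.21 at P3 (adjusted p = 0.00093). Eef1a2, the form of elongation factor 1A used by mature neurons and muscle, rose at both stages, by 1.48 ± 0.27 at P3 (adjusted p = 0.0052) and 2.72 ± 0.27 at P6 (adjusted p = 0.00032). Of 34 initiation factor genes 14 were called lower and 1 higher at P3, with a median of -0.73, and 3 lower and 1 higher at P6, a share under that of all genes. With E18 averaged 2 initiation factor genes were lower at P3, with the hybridization covariate 0, and without P3 replicate 1 or 2 the number was 23 or 10.

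Of 60 genes for ribosome assembly, 14 were called lower and 1 higher at P3, with a median of -0.52, and 8 lower and 3 higher at P6, lower shares that did not exceed those of all genes at either stage. The 14 became 4 with E18 averaged, 7 with the hybridization covariate and 36 without P3 replicate 1. Examples were Ddx18, an RNA helicase of the large subunit's assembly (-2.37 ± 0.31, adjusted p = 0.0012 at P3), and Dkc1, the enzyme that makes pseudouridine in ribosomal RNA (-1.51 ± 0.24, adjusted p = 0.0027). Of 15 genes of RNA polymerase I, which transcribes ribosomal RNA, and its factors, 8 were called lower at P3, with a median of -0.88, and 2 at P6. The 8 became 0 with E18 averaged, 1 with the hybridization covariate, 14 without P3 replicate 1 and 5 without P3 replicate 2. Ttf1, which ends that transcription, changed by -1.30 ± 0.23 at P3 (adjusted p = 0.0043) and -1.41 ± 0.23 at P6 (adjusted p = 0.0030).

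Of 19 regulators of ribosomal protein synthesis, 11 were called lower and 1 higher at P3, and 5 lower and 1 higher at P6. The 11 became 1 with E18 averaged and 2 with the hybridization covariate. Gabpa, the DNA-binding part of an ETS factor, read 9.67 and 9.70 on the E18 arrays, 7.55 and 7.37 on the P3 arrays, and 7.13 and 7.45 on the P6 arrays. It changed by -2.22 ± 0.22 at P3 (adjusted p = 0.00038) and -2.39 ± 0.22 at P6 (adjusted p = 0.00026). Mycn, the Myc family member of neural progenitors, changed by -1.58 ± 0.32 and -2.03 ± 0.32 and was called lower at both stages. Myc itself was called higher at both, by 1.32 ± 0.22 at P6 (adjusted p = 0.0039). Of 19 factors that meet the new chain at the ribosome, 6 were called lower at P3 and 3 at P6, near the shares of all genes, and the 6 became 1 with E18 averaged, 0 with the hybridization covariate and 13 without P3 replicate 1. Among them was Naca, the alpha subunit of the nascent chain complex (-1.18 ± 0.26 at P3, adjusted p = 0.012). In these lists, too, no gene was called between P3 and P6.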

How the data were processed

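RMA, named in the submitters' processing notes without a version, gave the deposited log2 values, 1 per probe set of a mouse expression array. RMA corrects background, normalizes and summarises, so changes at dim probe sets are understated. All 6 columns were used as deposited. Of 45101 probe sets, 34945 carried 1 symbol in the platform annotation and 932 several, which were left out; 34741 matched the RefSeq gene table by Entrez ID. Genes in the lowest 25% by mean signal were dropped, a floor of 5.97. A linear model of stage (limma 3.58.1, R 4.3.3) took all 6 arrays, with an intensity trend and 3 residual degrees of freedom. Tests were 2-sided, with Benjamini-Hochberg adjustment over all 13645 genes in each contrast and calls at an adjusted p below 0.05. Errors are standard errors of the fit, and each stage mean rests on n = 2 arrays, whose number limits the precision. The fit was tested on simulated data. Alternatives changed the probe set, filter, normalization, weights, covariates, replicate block and arrays. Named were members of the stalk, relative and 5S groups, the 5 highest, 5 lowest and 3 smallest changes per contrast, and up to 4 genes per pathway list by p; single members named beyond these were chosen after their values were seen. Replicate numbers did not pair the samples: deviations correlated at -0.20, 0.04 and -0.14. Members and lists were chosen with earlier results of these data known, and lists get no test.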

Additional observations from a re-analysis of the deposited data

How the results depend on the processing

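The medians of both subunits stayed negative between E18 and P3 under every alternative run. The number of members called there, 31 of 46, was 9 with the E18 arrays averaged and counted as 1, 2 with the hybridization controls as a covariate, and 56 of 95 probe sets when each was tested on its own (an alternative chosen after seeing the data). Leaving out each array in turn gave 8 to 35. At P6 the 18 members called became 9 with the mean of all probe sets, 10 with no filter, 33 with quantile normalization, 11 with median centring, 2 with E18 averaged, 35 with array weights (33 lower, 2 higher), 9 without an intensity trend, 31 with only the stages compared, 1 with the hybridization covariate, 27 of 95 probe sets tested each on its own, and 1 to 31 without each array in turn. Between P6 and P3 the range without each array was 0 to 14. For the second interval against the first, 12 became 7 with the mean of probe sets, 2 with E18 averaged, 1 with the hybridization covariate, and 2 to 30 without each array. The F test's 24 became 4, 15 without an intensity trend, 1, and 4 to 34 for the same alternatives. The replicate block gave 29, 0, 12, 10 and 18 members called for P3 against E18, P6 against P3, P6 against E18, the interval difference and the F test, but the samples share only a number. The median large subunit change at P3 was -1.03 without _x_at and _s_at probe sets and -0.51 with the 18S covariate, and -0.92 to -0.55 without each array. The small subunit's was -0.42 with the mean of probe sets, -0.995 to -0.52 without each array and -0.52 without P3 replicate 2 and P6 replicate 1 (chosen after seeing the data); between P3 and P6 it was -0.040 with quantile normalization and -0.086 to 0.41 without each array. The large minus small difference was -0.23 and -0.13 with the mean of probe sets, and -0.19 and -0.056 without _x_at and _s_at probe sets, at P3 and P6. Quantile normalization moved the median of all genes at P3 from -0.13 to 0.12 and that of the members to -0.54. The cause of these shifts was not tested. Fits with an array left out also had fewer arrays, and the part of that was not tested either. The share of all genes called is not given for these alternatives, so a shift in a count cannot be read as particular to the members.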
